A study of Homo sapiens with 15 samples.

Results

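The 44 genes described here lie in band 5p15, the outer part of the short arm of human chromosome 5, from PLEKHG4B near the end of the chromosome to BASP1. They were chosen by position and symbol from a table of 33158 genes, and the list was put together with the level differences of these same libraries in view, both those between the CSC and non-CSC fractions and those between the lines. All 44 symbols were in the table, and in the GENCODE release 29 annotation of GRCh38 they cover chr5:92151-17276843, a stretch of 17.2 megabases. Differences between CSC and non-CSC cells and between the lines, SUM159PT included, are therefore given as descriptions. Counts of called members stand beside the share of all genes called, and nothing is read from them.

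The study sequenced messenger RNA, captured with oligo(dT) and read on an Illumina instrument, from human triple-negative breast cancer cell lines, which lack the estrogen and progesterone receptors and amplified HER2. Its purpose was to compare breast cancer stem cells (CSC) with the other cells of a line. The 15 libraries form 5 groups of 3: CSC and non-CSC of SUM149PT, CSC and non-CSC of HCC1937, and SUM159PT. CSC were the CD44+CD24-/low cells of a fluorescence-activated sort and non-CSC were the cells outside that gate, while SUM159PT was, by the published methods, used unsorted and is labelled as cancer stem cells. The labels give no treatment or genetic change for any group, and each line is an established culture that stands for a single tumor. Levels are deposited as FPKM, fragments scaled to the length of the transcript and to the total of mapped fragments. Read counts were not used here, which leaves the sequencing depth behind each value unknown. Nothing in the labels says that libraries 1, 2 and 3 of a group came from separate cultures, so every p-value behind a call measures only the spread between these libraries.

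The end of 5p is among the chromosome arms most often gained in human carcinomas, and it carries TERT, the catalytic subunit of telomerase, which most cancer cells switch back on. Its other genes have unrelated tasks, among them chromatin reading, ribosome and chaperone function, ion transport, guidance of cell processes and the embryonic patterning done by Iroquois homeobox factors. Several of them stand head to head, with start sites close together on opposite strands, an arrangement common among housekeeping genes.

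Of the 2 surface markers of the gate, CD24 separated the fractions in both lines and CD44 in SUM149PT alone. CD24 was at 7.97, 7.64 and 7.61 FPKM in the SUM149PT CSC libraries, 147, 137 and 134 in non-CSC, 23.6, 22.5 and 23.9 in HCC1937 CSC, 167, 141 and 142 in non-CSC and 0.759, 0.682 and 0.745 in SUM159PT. The CSC libraries were thus low and the non-CSC libraries high in each sorted line, with no overlap, and SUM159PT was lower than either. CD44 was at 83.5, 82.9 and 86.8 FPKM in SUM149PT CSC, 66.96, 65.3 and 61.4 in SUM149PT non-CSC, 113, 100.4 and 106 in HCC1937 CSC, 95.98, 95.1 and 102 in HCC1937 non-CSC and 28.6, 29.4 and 28.4 in SUM159PT, so the HCC1937 fractions overlapped in CD44. EPCAM, an epithelial adhesion gene, was at 2.39, 2.03 and 3.03 FPKM in SUM149PT CSC against 60.3, 53.8 and 52.1 in non-CSC, and at 18.1, 18.3 and 16.8 against 93.1, 83.3 and 74.5 in HCC1937. PGR, the progesterone receptor gene, was listed at 0 in every library but 1, where it was at 0.00303 FPKM, and ESR1, the estrogen receptor gene, reached at most 1.86 FPKM. PTPRC, a marker of blood cells, reached at most 0.0986 FPKM and PECAM1, of endothelium, at most 0.721. VIM, the vimentin gene, averaged 2090 FPKM and 244 in the SUM149PT fractions, 917 and 156 in the HCC1937 fractions and 1078 in SUM159PT. ERBB2, which encodes HER2, averaged 3.55, 6.53, 10.2, 17.5 and 19.1 FPKM in that order. The keratin gene KRT18 averaged 40.9, 215, 212, 612 and 153 FPKM, KRT5 5.64, 141, 12.9, 32.4 and 1.34, KRT14 0.822, 1.28, 109, 170.2 and 0.194, and KRT17 66.4, 540.1, 91.6, 214 and 1.15. COL1A1, a collagen gene used as a fibroblast marker, moved with the fraction in SUM149PT, at 216, 219 and 213 FPKM in CSC against 45.95, 49.5 and 51.7 in non-CSC, and in HCC1937, at 11.2, 11.1 and 10.8 against 5.83, 6.88 and 7.57, without overlap in either line. Its part in the results was not tested. In bulk samples such as these, fewer cells of a type and less RNA per cell cannot be told apart.

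A gene was tested in a comparison when its mean over the 6 libraries was at least 0.1 FPKM, and called when its limma p-value, adjusted over all genes tested, was at most 0.05. Differences are on the log2 scale after adding 0.1 FPKM. Of the 44 members, 37 were tested between CSC and non-CSC of SUM149PT, with 33 called higher in CSC and 1 lower, where 33.3% and 41.5% of all 16037 genes tested were called higher and lower. In HCC1937, 37 members were tested, with 3 called higher and 4 lower, beside 10.3% and 15.3% of all 15582 genes. The members called in HCC1937 were DAP, ANKH and BASP1, higher in CSC, and ZDHHC11, SLC12A7, FAM105A and FAM134B, lower. Of the alternative settings with a value, the call held in 9 of 14 for DAP, 12 of 14 for BASP1 and for ZDHHC11, 7 of 14 for SLC12A7 and 14 of 14 for FAM134B. Below the minimum level in SUM149PT were SLC9A3, NKD2, TERT, IRX4, ADCY2, ROPN1L and CTNND2, and in HCC1937 SLC9A3, NKD2, TERT, ADCY2, SEMA5A, CTNND2 and FBXL7. PLEKHG4B, FAM105A and FAM134B were tested in SUM149PT and not called. Between the lines, HCC1937 against SUM149PT, 13 members were called higher and 14 lower of 38 tested in CSC, beside 45.2% and 31.5% of 15952 genes. In non-CSC 28 were higher and 6 lower of 36, beside 41.4% and 35.6% of 16433. SUM159PT against SUM149PT CSC gave 9 members higher and 26 lower of 37, beside 31.5% and 55.5% of 14976 genes, and against HCC1937 CSC 11 higher and 18 lower of 36, beside 27.5% and 57.9% of 15515. These counts include members whose mean reached the minimum level in a single group of the comparison, and the calls of such members carry no weight. They were IRX1 and LPCAT1 in SUM149PT, and LPCAT1, ADAMTS16, FAM105A and ANKH in HCC1937. Between the lines they were TERT, SEMA5A, FAM105A and FBXL7 in CSC, and IRX4, IRX1, ADAMTS16, SEMA5A and ANKH in non-CSC. For SUM159PT they were ZDHHC11, LPCAT1, DNAH5 and FAM105A against SUM149PT CSC, and ZDHHC11, TERT, LPCAT1, SEMA5A, DNAH5 and FBXL7 against HCC1937 CSC. Without them 31 members were higher and 1 lower of 35 in SUM149PT, beside 34.8% and 39.6% of the 14361 genes that reached the minimum in both groups. In HCC1937 2 were higher and 3 lower of 33, beside 10.2% and 14.9% of 14831. Between the lines 13 were higher and 11 lower of 34 in CSC, beside 45.4% and 30.4% of 13775, and 26 and 3 of 31 in non-CSC, beside 42.8% and 33.3% of 14336. For SUM159PT 9 were higher and 22 lower of 33 against SUM149PT CSC, beside 34.1% and 52.8% of 12886, and 8 and 16 of 30 against HCC1937 CSC, beside 29.2% and 55.6% of 12533. The SUM149PT CSC and HCC1937 CSC libraries enter several of these comparisons, so the comparisons are not independent of each other.

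The split of calls moved by more than 10 points with the scaling in 3 of these comparisons. Of the HCC1937 genes called between CSC and non-CSC, 40.3% were higher in CSC as deposited, 52.7% after quantile normalization and 56.1% on the TPM scale, where every library is brought to the same total. Of those called between SUM159PT and SUM149PT CSC, 36.2% were higher in SUM159PT as deposited, 50.3% after quantile normalization and 18.3% on the TPM scale. Against HCC1937 CSC these shares were 32.2%, 49.4% and 16.9%. The other comparisons moved by less, yet across an even split in places. In SUM149PT the share higher in CSC went from 44.6% to 54.4% after quantile normalization, and for HCC1937 against SUM149PT in non-CSC it went from 53.8% to 44.7% with upper quartile scaling and 47.6% on the TPM scale. In CSC of the lines it went from 58.9% to 50.1% with upper quartile scaling. The FPKM values of a SUM159PT library summed to 652082, 646697 and 634746, against sums from 291277 to 366533 in the 12 sorted libraries, and 8534 to 8670 genes reached 1 FPKM in SUM159PT against 11249 to 11997 in the others. For differences from SUM159PT, a range said below to be over the scalings spans quantile, upper quartile and TPM scaling and the removal of the trend on GC content.

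Levels of the members spanned a wide range, so their centre was taken library by library. The median over the 30 members that averaged 1 FPKM or more over the sorted libraries was 17.4, 18.3 and 16.9 FPKM in the SUM149PT CSC libraries and 5.79, 6.42 and 6.43 in non-CSC. It was 19.95, 16.9 and 17.1 FPKM in HCC1937 CSC, 18.2, 18.7 and 17.6 in HCC1937 non-CSC and 9.78, 9.92 and 9.74 in SUM159PT. On this scale the SUM149PT non-CSC libraries were lowest and SUM159PT came next. With every library brought to the same total, the order of these 2 groups turned, at 15.3 or less in each SUM159PT library against 18.0, 21.4 and 20.4 in SUM149PT non-CSC. The order of groups given for each gene below is that of the deposited values. NKD2, an inhibitor of Wnt signalling, and ADCY2, an adenylyl cyclase, were listed at 0 in all 15 libraries. SLC9A3, a sodium and proton exchanger, and CTNND2, a catenin of neurons, reached at most 0.0617 and 0.0284 FPKM, so these 4 members were tested nowhere.

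**Figure D1:**
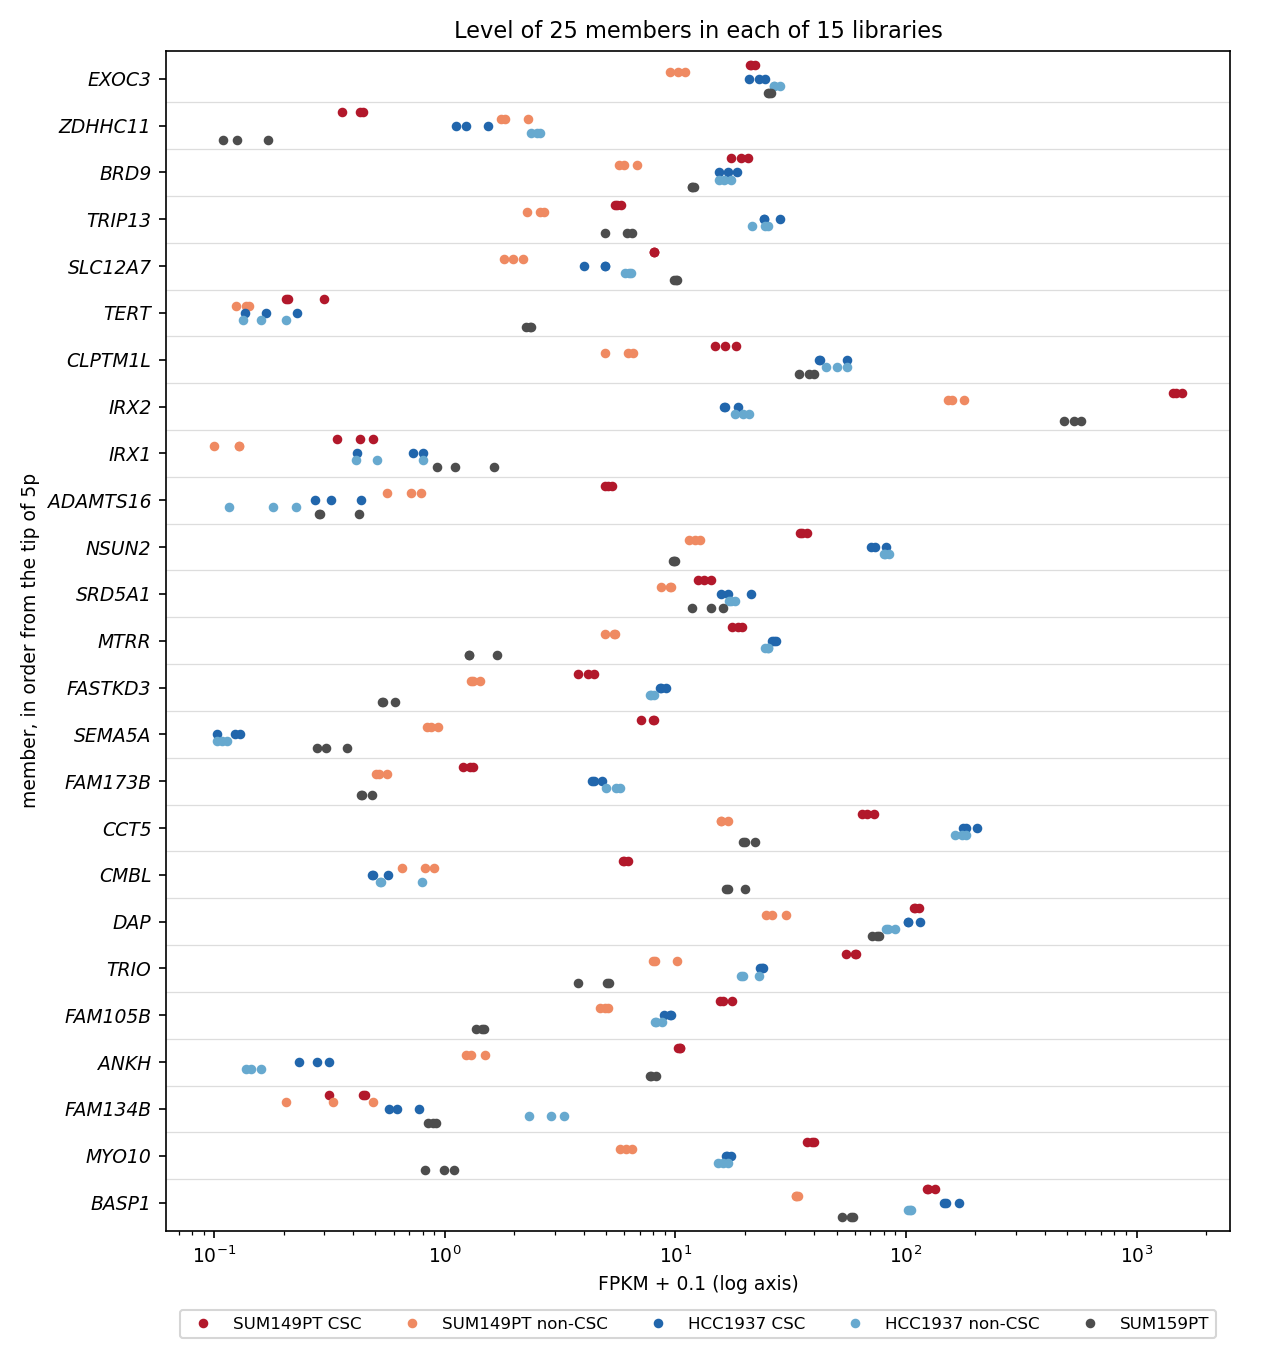
Levels of 25 members in each of the 15 libraries, as FPKM + 0.1 on a log axis, with 1 point per library, 1 color per group and members in order from the tip of 5p. For most members the SUM149PT non-CSC points lie below the SUM149PT CSC points, while the HCC1937 fractions lie close together, and IRX2 in SUM149PT CSC is the highest level shown.

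Of the developmental factors on the list, IRX2 was the most abundant in every library. IRX2, an Iroquois homeobox factor, was at 1568, 1483 and 1443 FPKM in SUM149PT CSC, 152, 158 and 178 in SUM149PT non-CSC, 18.7, 16.3 and 16.2 in HCC1937 CSC, 20.8, 19.6 and 17.99 in HCC1937 non-CSC and 538, 576 and 484 in SUM159PT. All SUM149PT CSC libraries were above all others, SUM159PT came next, and the HCC1937 fractions were low and overlapped. The difference of CSC minus non-CSC was 3.20 (SE 0.0804) in SUM149PT and -0.19 (SE 0.0946) in HCC1937, and HCC1937 minus SUM149PT was -6.45 (SE 0.0824) in CSC and -3.06 (SE 0.0935) in non-CSC. SUM159PT was lower than SUM149PT CSC by a log2 difference of -1.49 (SE 0.0896), and higher than HCC1937 CSC by 4.96 (SE 0.109), in 3 of 3 libraries each time. Over the scalings the first went from -3.07 to -1.19 and the second from 3.96 to 5.50. IRX1, the neighboring Iroquois gene, was scarce, at 0.329, 0.242 and 0.388 FPKM in SUM149PT CSC, 0, 0.0283 and 0.0284 in SUM149PT non-CSC, 0.631, 0.315 and 0.707 in HCC1937 CSC, 0.704, 0.408 and 0.313 in HCC1937 non-CSC and 1.54, 1.01 and 0.823 in SUM159PT. As deposited its highest libraries were those of SUM159PT, which overlapped with HCC1937 CSC at equal library totals, the HCC1937 fractions overlapped and SUM149PT non-CSC was at or near 0. The difference of IRX1 between the SUM149PT fractions was 1.81 (SE 0.168), and from 0.37 to 3.72 over 13 alternatives, since the value added before the logarithm weighs heavily near 0. IRX1 passed the minimum there through CSC alone, so its call carries no weight. In IRX1 SUM159PT exceeded SUM149PT CSC by 1.52 (SE 0.241) and HCC1937 CSC by 0.92 (SE 0.3197). On the TPM scale these became 0.65 and 0.05 and with the GC trend removed 0.02 and -0.25, none of them called, so the direction of IRX1 against HCC1937 CSC depends on that step. IRX4, the remaining Iroquois member, reached at most 0.437 FPKM, in HCC1937 non-CSC, and was listed at 0 in the SUM149PT CSC and SUM159PT libraries. C5orf38, which lies next to IRX2 and is not a member, was at 456, 405 and 393 FPKM in SUM149PT CSC, 44.4, 46.9 and 53.1 in SUM149PT non-CSC, 10.2, 8.79 and 7.88 in HCC1937 CSC, 11.5, 15.5 and 9.38 in HCC1937 non-CSC and 876, 977 and 874 in SUM159PT, with the HCC1937 fractions low and overlapping. SUM159PT was highest as deposited, but overlapped with SUM149PT CSC at equal library totals.

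The promoter of IRX2 is shown because this gene had the largest difference between the SUM149PT fractions among the members tested. The window spans the RefSeq start, at chr5:2751628-2751927 on the minus strand of GRCh38.p14, from RefSeq. Capitals mark CCAAT and GGGCGG on either strand, so that ATTGG and CCGCCC count as well, and no matches overlapped in it. The window held 1 CCAAT match and 4 GGGCGG matches.
IRX2: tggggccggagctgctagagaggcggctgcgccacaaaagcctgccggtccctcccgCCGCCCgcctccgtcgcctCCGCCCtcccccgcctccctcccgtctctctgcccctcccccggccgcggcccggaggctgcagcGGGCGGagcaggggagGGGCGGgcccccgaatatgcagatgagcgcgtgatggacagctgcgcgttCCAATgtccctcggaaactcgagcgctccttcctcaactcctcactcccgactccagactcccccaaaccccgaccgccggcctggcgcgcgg
RefSeq windows were found for 37 of the 44 members, 43 windows in all, and none was listed for ADAMTS16, NSUN2, PAPD7, MTRR, FAM173B, CMBL and DAP. GGGCGG was in 33 of the member windows (76.7%) and in 15786 of all 35116 windows of the table, and CCAAT in 27.9% and 34.6%. Other motifs were searched on both strands and are not in capitals. CACCTG was in 16.3% of the member windows and 20.6% of all windows. For CACGTG, which reads alike on both strands, the shares were 14.0% and 7.26%. The TATA motif, written TATAAA, was in 2.33% and 11.5%. A match describes the letters of a window and nothing more.

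Chromatin, telomere and cell division genes came next. BRD9, a bromodomain subunit of a chromatin remodeling complex, was at 17.4, 20.5 and 19.2 FPKM in SUM149PT CSC, 5.60, 6.71 and 5.88 in SUM149PT non-CSC, 18.4, 15.4 and 16.9 in HCC1937 CSC, 17.3, 16.1 and 15.4 in HCC1937 non-CSC and 11.8, 11.9 and 11.7 in SUM159PT. TRIP13, an ATPase of the spindle checkpoint, was at 5.45, 5.39 and 5.72 FPKM in SUM149PT CSC, 2.60, 2.18 and 2.49 in SUM149PT non-CSC, 28.3, 24.1 and 24.2 in HCC1937 CSC, 25.1, 24.4 and 21.4 in HCC1937 non-CSC and 6.39, 4.87 and 6.03 in SUM159PT. As deposited both were lowest in SUM149PT non-CSC, without overlap with SUM149PT CSC, and TRIP13 was highest in the HCC1937 fractions, which overlapped. The differences between the SUM149PT fractions were 1.63 (SE 0.0991) for BRD9 and 1.16 (SE 0.0811) for TRIP13. Between the HCC1937 fractions they were 0.05 (SE 0.0932) and 0.11 (SE 0.105). HCC1937 minus SUM149PT was 2.19 (SE 0.0862) in CSC and 3.23 (SE 0.102) in non-CSC for TRIP13. SUM159PT was lower than HCC1937 CSC in TRIP13 by a log2 difference of -2.13 (SE 0.135) in 3 of 3 libraries, from -3.14 to -1.37 over the scalings, and differed from SUM149PT CSC by 0.05 (SE 0.115), which was not called. This became 0.79 after quantile normalization, 0.36 with upper quartile scaling and -1.03 on the TPM scale, all called, so its direction rests on the scaling. CEP72, a centrosome protein, averaged 13.98 FPKM in SUM149PT CSC and 4.69 in non-CSC, against 10.3 and 10.6 in HCC1937 and 9.13 in SUM159PT.

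TERT was scarce in the sorted cells. Its level was 0.109, 0.1999 and 0.105 FPKM in SUM149PT CSC, 0.0414, 0.0371 and 0.0243 in SUM149PT non-CSC, 0.129, 0.0676 and 0.0362 in HCC1937 CSC, 0.0592, 0.104 and 0.0328 in HCC1937 non-CSC and 2.25, 2.27 and 2.14 in SUM159PT. Every SUM159PT library was above every sorted library, the HCC1937 fractions overlapped, and SUM149PT CSC lay above SUM149PT non-CSC. SUM159PT exceeded SUM149PT CSC by a log2 difference of 3.31 (SE 0.158) and HCC1937 CSC by 3.74 (SE 0.191), in 3 of 3 libraries each time. Over the 14 alternative settings run for each, the difference ranged from 1.501 to 4.36 and from 1.58 to 4.91, in the same direction. TERT averaged 0.0774 FPKM in HCC1937 CSC, under the minimum level, so it entered that comparison through SUM159PT alone and its call there carries no weight. TERT did not reach the minimum level for a test between the fractions of either sorted line.

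The group named RNA, translation and mitochondria was set loosely by symbol. It takes in CCT5, MTRR and MED10, whose tasks lie partly outside that name. All 9 members of the group were called higher in SUM149PT CSC, beside 33.3% of all genes, with differences from 1.27 to 2.08. None was called in HCC1937, beside 10.3% higher and 15.3% lower of all genes, where limma gave differences from -0.26 to 0.16 and 5886 of all genes reached 0.05 or less without adjustment. CCT5, a subunit of the chaperonin that folds actin and tubulin, was at 64.6, 72.6 and 67.97 FPKM in SUM149PT CSC, 15.7, 15.6 and 16.8 in SUM149PT non-CSC, 203, 182 and 178 in HCC1937 CSC, 175, 182 and 162 in HCC1937 non-CSC and 20.02, 22.02 and 19.6 in SUM159PT. FAM173B, a mitochondrial lysine methyltransferase, was at 1.22, 1.096 and 1.18 FPKM in SUM149PT CSC, 0.420, 0.463 and 0.401 in SUM149PT non-CSC, 4.73, 4.24 and 4.34 in HCC1937 CSC, 5.45, 5.64 and 4.88 in HCC1937 non-CSC and 0.383, 0.334 and 0.338 in SUM159PT. Both were highest in HCC1937, and both were low in SUM159PT and in SUM149PT non-CSC. The CSC minus non-CSC difference in SUM149PT was 2.08 (SE 0.0693) for CCT5 and 1.27 (SE 0.0736) for FAM173B. HCC1937 minus SUM149PT was 1.45 (SE 0.0826) in CSC and 3.42 (SE 0.0732) in non-CSC for CCT5, and 1.84 (SE 0.07495) and 3.36 (SE 0.0860) for FAM173B. CCT5 was lower in SUM159PT than in SUM149PT CSC by a log2 difference of -1.73 (SE 0.0837) and than in HCC1937 CSC by a log2 difference of -3.18 (SE 0.0968), in 3 of 3 libraries, which over the scalings went from -2.82 to -0.92 and from -4.19 to -2.35. FAM173B was lower in SUM159PT than in HCC1937 CSC by a log2 difference of -3.33 (SE 0.0918), from -4.43 to -1.63 over the scalings. Its difference from SUM149PT CSC, -1.49 (SE 0.0807), was -0.04 after quantile normalization, -2.62 on the TPM scale and 0.16 with the GC trend removed.

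MTRR and FASTKD3 were also low in SUM159PT. MTRR, which reactivates methionine synthase, was at 19.3, 18.5 and 17.5 FPKM in SUM149PT CSC, 5.31, 4.85 and 5.38 in SUM149PT non-CSC, 26.1, 26.6 and 27.1 in HCC1937 CSC, 25.2, 25.1 and 24.4 in HCC1937 non-CSC and 1.17, 1.17 and 1.58 in SUM159PT. FASTKD3, a mitochondrial RNA protein, was at 3.67, 4.08 and 4.32 FPKM in SUM149PT CSC, 1.33, 1.197 and 1.23 in SUM149PT non-CSC, 9.02, 8.59 and 8.45 in HCC1937 CSC, 7.71, 7.97 and 7.62 in HCC1937 non-CSC and 0.435, 0.437 and 0.509 in SUM159PT. For both genes every SUM159PT library lay below every sorted library, and the SUM149PT fractions stood apart. The SUM149PT difference was 1.81 (SE 0.0703) for MTRR and 1.61 (SE 0.0817) for FASTKD3, and in HCC1937 0.10 (SE 0.0594) and 0.16 (SE 0.0637). SUM159PT was lower than SUM149PT CSC by a log2 difference of -3.73 (SE 0.131) in MTRR and -2.88 (SE 0.0956) in FASTKD3, in 3 of 3 libraries. Over the scalings these went from -4.85 to -2.43 and from -4.04 to -0.98, the latter end of each with the GC trend removed. Against HCC1937 CSC it was lower by a log2 difference of -4.26 (SE 0.133) and -3.97 (SE 0.0918), from -5.30 to -2.80 and from -5.06 to -2.08 over the scalings. NSUN2, an RNA cytosine methyltransferase, was at 34.6, 37.1 and 35.2 FPKM in SUM149PT CSC, 11.4, 12.1 and 12.7 in SUM149PT non-CSC, 82.2, 70.4 and 73.6 in HCC1937 CSC, 84.5, 81.4 and 80.3 in HCC1937 non-CSC and 9.63, 9.76 and 9.84 in SUM159PT. Its HCC1937 libraries were highest and its SUM159PT and SUM149PT non-CSC libraries lowest. The difference of NSUN2 was 1.56 (SE 0.0655) between the SUM149PT fractions and -1.86 (SE 0.0653) between SUM159PT and SUM149PT CSC. Against HCC1937 CSC, NSUN2 in SUM159PT differed by -2.94 (SE 0.0914). Over the scalings these 2 went from -2.95, on the TPM scale, to -0.90, with the GC trend removed, and from -3.95 to -1.95.

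The other members of this role were MRPL36, a mitochondrial ribosome protein, PAPD7, a poly(A) polymerase, MED10, a Mediator subunit, and ZNF622, a factor of ribosome maturation. MRPL36 averaged 106 FPKM in SUM149PT CSC and 27.6 in non-CSC, and 137 in SUM159PT. Its differences from SUM149PT CSC and HCC1937 CSC were 0.37 (SE 0.0833) and 0.57 (SE 0.128) as deposited, -0.33 and 0.01 after quantile normalization, -0.72 and -0.44 on the TPM scale and -1.10 and -0.59 with the GC trend removed, so their direction rests on the scaling. MED10 averaged 62.9 and 17.9 FPKM in the SUM149PT fractions, PAPD7 23.2 and 6.93, and ZNF622 34.4 and 11.9.

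The group named membrane transport, lipid and secretion was also set loosely by symbol. It had the widest range of differences between the SUM149PT fractions, from -2.26 for ZDHHC11 to 2.96 for CMBL. Neither of these genes falls under the group name in its strict sense. CMBL, a hydrolase that activates prodrugs, was at 5.85, 5.895 and 6.15 FPKM in SUM149PT CSC, 0.553, 0.796 and 0.718 in SUM149PT non-CSC, 0.382, 0.386 and 0.466 in HCC1937 CSC, 0.694, 0.427 and 0.424 in HCC1937 non-CSC and 16.8, 20.03 and 16.5 in SUM159PT. ANKH, a membrane protein that lets pyrophosphate and ATP leave the cell, was at 10.2, 10.3 and 10.3 FPKM in SUM149PT CSC, 1.14, 1.202 and 1.399 in SUM149PT non-CSC, 0.178, 0.133 and 0.215 in HCC1937 CSC, 0.0586, 0.0439 and 0.0378 in HCC1937 non-CSC and 7.76, 8.17 and 7.68 in SUM159PT. Both were low in HCC1937 and far higher in SUM149PT CSC than in non-CSC, and CMBL was highest in SUM159PT. The CSC minus non-CSC difference in SUM149PT was 2.96 (SE 0.125) for CMBL and 2.95 (SE 0.0842) for ANKH. In HCC1937 the CMBL fractions overlapped, with a difference of -0.24 (SE 0.187), while ANKH differed by 0.90 (SE 0.130) at levels so near 0 that it passed the minimum through CSC alone. HCC1937 minus SUM149PT in CSC was -3.57 (SE 0.0843) for CMBL and -5.25 (SE 0.118) for ANKH. SUM159PT exceeded SUM149PT CSC in CMBL by 1.55 (SE 0.0961), and HCC1937 CSC by 5.13 (SE 0.1195), in 3 of 3 libraries each time. The first was 0.48 on the TPM scale and at most 1.86 over the scalings, and the second went from 4.32 to 5.63. ANKH exceeded HCC1937 CSC by 4.87 (SE 0.127), whereas its difference from SUM149PT CSC was -0.38 (SE 0.0642) as deposited, -1.47 on the TPM scale, 0.11 after quantile normalization and 0.09 with the GC trend removed.

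ZDHHC11, a protein palmitoyltransferase, was the member called lower in SUM149PT CSC. Its level was 0.328, 0.342 and 0.256 FPKM in SUM149PT CSC, 1.73, 2.203 and 1.65 in SUM149PT non-CSC, 1.44, 1.14 and 1.01 in HCC1937 CSC, 2.42, 2.25 and 2.48 in HCC1937 non-CSC and 0.0253, 0.0713 and 0.00882 in SUM159PT. CSC lay below non-CSC in both lines with no overlap, and SUM159PT was lowest. The difference of CSC minus non-CSC was -2.26 (SE 0.141) in SUM149PT and -0.95 (SE 0.134) in HCC1937. SUM159PT was lower by a log2 difference of -1.62 (SE 0.187) than SUM149PT CSC and of -3.28 (SE 0.206) than HCC1937 CSC, in 3 of 3 libraries. At 0.0351 FPKM on average in SUM159PT, ZDHHC11 passed the minimum in both through the CSC group alone. FAM134B, a receptor for autophagy of the endoplasmic reticulum, was at 0.353, 0.214 and 0.342 FPKM in SUM149PT CSC, 0.3898, 0.105 and 0.228 in SUM149PT non-CSC, 0.519, 0.674 and 0.474 in HCC1937 CSC, 2.78, 3.18 and 2.21 in HCC1937 non-CSC and 0.786, 0.746 and 0.818 in SUM159PT. HCC1937 non-CSC stood above all other libraries, and the SUM149PT fractions overlapped. FAM134B differed by -2.11 (SE 0.174) between the HCC1937 fractions and by 3.13 (SE 0.331) between the lines in non-CSC. It was higher in SUM159PT than in SUM149PT CSC by 1.15 (SE 0.154) as deposited, by 2.65 with the GC trend removed and by 0.28 on the TPM scale, where it was not called, while the difference from HCC1937 CSC, 0.44 (SE 0.131), turned to -0.46 on the TPM scale.

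SLC12A7, a potassium and chloride cotransporter, was at 7.93, 7.96 and 8.01 FPKM in SUM149PT CSC, 1.71, 1.87 and 2.08 in SUM149PT non-CSC, 4.86, 4.87 and 3.92 in HCC1937 CSC, 5.94, 6.22 and 6.34 in HCC1937 non-CSC and 9.93, 10.1 and 9.75 in SUM159PT. CSC was the higher fraction in SUM149PT and the lower fraction in HCC1937, without overlap in either. These differences were 2.03 (SE 0.08098) and -0.44 (SE 0.105), and the latter, from -0.51 to -0.29 over the alternatives, was called in 7 of 14. EXOC3, a subunit of the exocyst that tethers secretory vesicles, was at 21.2, 21.04 and 22.04 FPKM in SUM149PT CSC, 9.37, 10.9 and 10.2 in SUM149PT non-CSC, 24.3, 23.0 and 20.7 in HCC1937 CSC, 28.2, 26.7 and 26.6 in HCC1937 non-CSC and 25.3, 25.04 and 25.9 in SUM159PT. Its SUM149PT difference was 1.07 (SE 0.0727), and its HCC1937 difference of -0.26 (SE 0.0838) was not called although the libraries did not overlap. SUM159PT exceeded SUM149PT CSC by 0.31 (SE 0.0612) in SLC12A7 and 0.25 (SE 0.0635) in EXOC3 as deposited, and these turned to -0.77 and -0.84 on the TPM scale and to -1.01 and -1.01 with the GC trend removed. Their direction against SUM149PT CSC thus rests on the scaling. Against HCC1937 CSC, SLC12A7 was higher by 1.11 (SE 0.111) as deposited, but by 0.12 on the TPM scale and 0.09 with the GC trend removed, where it was not called.

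CLPTM1L, a membrane protein next to TERT, was at 14.7, 18.1 and 16.3 FPKM in SUM149PT CSC, 4.85, 6.13 and 6.45 in SUM149PT non-CSC, 55.5, 42.1 and 41.8 in HCC1937 CSC, 50.2, 55.3 and 44.7 in HCC1937 non-CSC and 39.8, 34.4 and 38 in SUM159PT. SUM149PT non-CSC was lowest and the HCC1937 fractions overlapped. The SUM149PT difference of CLPTM1L was 1.49 (SE 0.136), and HCC1937 minus SUM149PT was 1.49 (SE 0.144) in CSC and 3.09 (SE 0.138) in non-CSC. Against SUM149PT CSC, CLPTM1L in SUM159PT differed by 1.19 (SE 0.106) as deposited, by 0.10 on the TPM scale and by -0.01 with the GC trend removed. SRD5A1, which makes dihydrotestosterone, was at 12.4, 14.1 and 13.2 FPKM in SUM149PT CSC, 9.39, 8.59 and 9.44 in SUM149PT non-CSC, 21.3, 16.8 and 15.6 in HCC1937 CSC, 16.9, 17.9 and 17.3 in HCC1937 non-CSC and 14.1, 15.96 and 11.7 in SUM159PT. Its SUM149PT fractions did not overlap and its HCC1937 fractions did. Its differences were 0.53 (SE 0.0757) in SUM149PT and 0.03 (SE 0.128) in HCC1937. PDCD6, a calcium-binding protein of vesicle transport, averaged 27.2 FPKM in SUM149PT CSC, 20.9 in non-CSC, 44.8 and 53.4 in the HCC1937 fractions and 52.9 in SUM159PT. For SUM159PT minus SUM149PT CSC, PDCD6 was at 0.96 as deposited, 0.58 after quantile normalization and 1.27 with upper quartile scaling, all called. On the TPM scale it was at -0.13 and with the GC trend removed at 0.001, neither called. LPCAT1, which remodels phospholipids, reached at most 0.442 FPKM. CCDC127, a coiled-coil protein placed in no role, averaged 15.6 FPKM in SUM149PT CSC and 9.63 in non-CSC.

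Cytoskeleton, adhesion and guidance genes had the highest median difference between the SUM149PT fractions among the roles with at least 3 members tested, 2.49 over 8 members. SEMA5A, a semaphorin that steers growing cell processes, was at 7.98, 7.02 and 7.93 FPKM in SUM149PT CSC, 0.734, 0.768 and 0.838 in SUM149PT non-CSC, 0.0296, 0.0232 and 0.00306 in HCC1937 CSC, 0.00311, 0.00827 and 0.0131 in HCC1937 non-CSC and 0.178, 0.205 and 0.276 in SUM159PT. ADAMTS16, a secreted metalloprotease, was at 5.01, 4.85 and 5.21 FPKM in SUM149PT CSC, 0.463, 0.685 and 0.612 in SUM149PT non-CSC, 0.331, 0.2198 and 0.172 in HCC1937 CSC, 0.0153, 0.0802 and 0.127 in HCC1937 non-CSC and 0.184, 0.325 and 0.187 in SUM159PT. For both, SUM149PT CSC stood far above every other library, and SEMA5A was near 0 in HCC1937. The SUM149PT difference was 3.14 (SE 0.0808) for SEMA5A and 2.91 (SE 0.131) for ADAMTS16, and the ADAMTS16 difference in HCC1937 was 0.998 (SE 0.297), not called. HCC1937 minus SUM149PT in CSC was -6.03 (SE 0.111) for SEMA5A, which passed the minimum there through SUM149PT alone, and -3.93 (SE 0.173) for ADAMTS16. SUM159PT was lower than SUM149PT CSC by a log2 difference of -4.61 (SE 0.1303) in SEMA5A and -3.97 (SE 0.169) in ADAMTS16, in 3 of 3 libraries, and over the scalings from -5.86 to -3.24 and from -5.21 to -2.56. SEMA5A was higher in SUM159PT than in HCC1937 CSC by 1.43 (SE 0.151), a comparison it entered through SUM159PT alone, while ADAMTS16 differed there by -0.04 (SE 0.232), not called. The latter became 1.39 after quantile normalization, -0.88 on the TPM scale and -0.79 with the GC trend removed, all called, so its direction rests on the scaling.

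TRIO and MYO10, which shape actin, were lowest in SUM159PT. TRIO was at 60.6, 54.9 and 59.8 FPKM in SUM149PT CSC, 8.03, 7.898 and 10.04 in SUM149PT non-CSC, 23.97, 23.3 and 23.5 in HCC1937 CSC, 19.1, 19.5 and 23.04 in HCC1937 non-CSC and 3.68, 4.94 and 5.04 in SUM159PT. MYO10, the myosin of filopodia, was at 39.8, 36.99 and 39.2 FPKM in SUM149PT CSC, 5.98, 5.63 and 6.41 in SUM149PT non-CSC, 16.5, 16.6 and 17.2 in HCC1937 CSC, 15.2, 15.9 and 16.8 in HCC1937 non-CSC and 0.717, 0.891 and 0.993 in SUM159PT. Every SUM159PT library was below every sorted library, SUM149PT CSC was highest and the remaining groups lay between. Differences between the SUM149PT fractions were 2.75 (SE 0.111) for TRIO and 2.67 (SE 0.0708) for MYO10, and between the HCC1937 fractions 0.20 (SE 0.0917) and 0.07 (SE 0.0689), neither called. SUM159PT was lower than SUM149PT CSC by a log2 difference of -3.66 (SE 0.136) in TRIO and -5.33 (SE 0.1202) in MYO10, in 3 of 3 libraries. Against HCC1937 CSC it was lower by a log2 difference of -2.36 (SE 0.137) and -4.14 (SE 0.125). For TRIO these went from -4.76 to -3.10 and from -3.37 to -1.46 over the scalings. The MYO10 difference ranged from -6.48 to -4.00 and from -5.19 to -2.51 over the alternative settings run. BASP1, a membrane-bound protein of growth cones, was at 133, 124 and 123 FPKM in SUM149PT CSC, 33.4, 34.1 and 33.1 in SUM149PT non-CSC, 169, 146 and 149 in HCC1937 CSC, 102, 105 and 104 in HCC1937 non-CSC and 57.8, 58.99 and 52.7 in SUM159PT. CSC exceeded non-CSC without overlap in both lines, by 1.92 (SE 0.0576) in SUM149PT and 0.57 (SE 0.0796) in HCC1937. SUM159PT was lower than SUM149PT CSC in BASP1 by a log2 difference of -1.17 (SE 0.0785), from -2.26 to -0.86 over the scalings. TPPP, which bundles microtubules, averaged 2.86 FPKM in SUM149PT CSC and 0.731 in non-CSC, and DNAH5, a dynein of cilia, 1.09 and 0.141. PLEKHG4B reached at most 0.218 FPKM and ROPN1L, a sperm tail protein, at most 0.276.

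Of the ubiquitin and cell death genes, DAP was the most abundant. DAP, a death-associated protein, was at 109, 114 and 109 FPKM in SUM149PT CSC, 26.1, 24.7 and 30.2 in SUM149PT non-CSC, 115, 102 and 102 in HCC1937 CSC, 81.4, 89.4 and 83.2 in HCC1937 non-CSC and 74.6, 71.2 and 76.3 in SUM159PT. CSC was the higher fraction in both lines without overlap, by 2.04 (SE 0.0889) in SUM149PT and 0.33 (SE 0.0818) in HCC1937. FAM105B, the deubiquitinase of linear chains, was at 17.5, 15.9 and 15.6 FPKM in SUM149PT CSC, 4.62, 4.85 and 5.001 in SUM149PT non-CSC, 8.82, 9.51 and 9.41 in HCC1937 CSC, 8.17, 8.02 and 8.64 in HCC1937 non-CSC and 1.34, 1.38 and 1.26 in SUM159PT. SUM159PT was lowest, and all SUM149PT CSC libraries were above the rest. Its SUM149PT difference was 1.74 (SE 0.0692), and SUM159PT was lower than SUM149PT CSC by a log2 difference of -3.52 (SE 0.0782) and than HCC1937 CSC by a log2 difference of -2.71 (SE 0.0838), in 3 of 3 libraries, from -4.64 to -2.23 and from -3.74 to -1.14 over the scalings. FBXL7, an F-box protein, averaged 1.45 FPKM in SUM149PT CSC, 0.193 in non-CSC and 0.917 in SUM159PT, and reached at most 0.0255 in HCC1937. FAM105A, a relative of FAM105B, was at most 0.319 FPKM. Its difference in HCC1937 was -0.69 (SE 0.157), and it passed the minimum there through non-CSC alone.

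For head-to-head pairs the promoters are shown because both genes of a pair start in the same short window. Taking for each pair the closest starts among the protein-coding transcripts of the basic GENCODE release 29 set, which need not be the ends of the genes, they are 97 bases apart in BRD9 and TRIP13, 52 in NSUN2 and SRD5A1, 102 in MTRR and FASTKD3, and 24 in CCT5 and FAM173B. The windows, from RefSeq on GRCh38.p14, are chr5:892501-892800 on the minus strand for BRD9, chr5:6633190-6633489 on the plus strand for SRD5A1 and chr5:7868982-7869281 on the minus strand for FASTKD3, and each holds both of these starts of its pair. Capitals again mark CCAAT and GGGCGG on either strand, and no matches overlapped.
BRD9: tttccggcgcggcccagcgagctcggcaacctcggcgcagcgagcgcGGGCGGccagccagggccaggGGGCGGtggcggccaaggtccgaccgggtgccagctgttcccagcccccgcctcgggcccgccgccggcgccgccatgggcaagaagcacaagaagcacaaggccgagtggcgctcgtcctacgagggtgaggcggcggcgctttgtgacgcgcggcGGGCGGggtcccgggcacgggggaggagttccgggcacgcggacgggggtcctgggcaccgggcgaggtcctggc
SRD5A1: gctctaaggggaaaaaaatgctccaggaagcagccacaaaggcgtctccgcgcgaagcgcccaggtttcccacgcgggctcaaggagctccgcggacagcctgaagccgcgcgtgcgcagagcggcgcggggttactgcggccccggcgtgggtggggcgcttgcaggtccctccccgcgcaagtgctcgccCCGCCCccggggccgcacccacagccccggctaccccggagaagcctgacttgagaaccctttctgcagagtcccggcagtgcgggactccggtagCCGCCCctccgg
FASTKD3: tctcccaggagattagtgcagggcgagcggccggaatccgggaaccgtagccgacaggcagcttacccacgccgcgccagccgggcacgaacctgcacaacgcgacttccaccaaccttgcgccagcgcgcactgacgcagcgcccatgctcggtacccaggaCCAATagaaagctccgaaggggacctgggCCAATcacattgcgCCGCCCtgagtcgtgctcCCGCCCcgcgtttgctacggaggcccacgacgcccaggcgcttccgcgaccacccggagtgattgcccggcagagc
The BRD9 window held 3 GGGCGG matches, the SRD5A1 window 2, and the FASTKD3 window 2 beside 2 CCAAT matches. The RefSeq window of CCT5 did not hold the annotated starts of its pair.

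Genes of a pair did not keep a fixed ratio. The log2 ratio of BRD9 to TRIP13 averaged 1.76 in SUM149PT CSC, 1.29 in SUM149PT non-CSC, -0.59 in HCC1937 CSC, -0.53 in HCC1937 non-CSC and 1.03 in SUM159PT. That of NSUN2 to SRD5A1 averaged 1.42, 0.40, 2.08, 2.23 and -0.50 in the same order. MTRR to FASTKD3 gave 2.17, 1.97, 1.60, 1.67 and 1.32. The first pair thus changed sign between the lines and NSUN2 over SRD5A1 changed sign in SUM159PT, while MTRR was above FASTKD3 in every group. CCT5 to FAM173B gave 5.76, 4.94, 5.37, 4.997 and 5.51. Between the SUM149PT fractions the difference of the first gene exceeded that of its partner by 0.48 for BRD9, 1.03 for NSUN2, 0.20 for MTRR and 0.82 for CCT5. The annotated spans of some members overlap, by 182 bases in BRD9 and TRIP13, 9879 in MTRR and FASTKD3, 696 in ZDHHC11 and BRD9, 1480 in EXOC3 and SLC9A3, and 7307 in CEP72 and TPPP. No strand is given in the sources used here, so fragments from a shared stretch cannot be told apart.

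**Figure D2:**
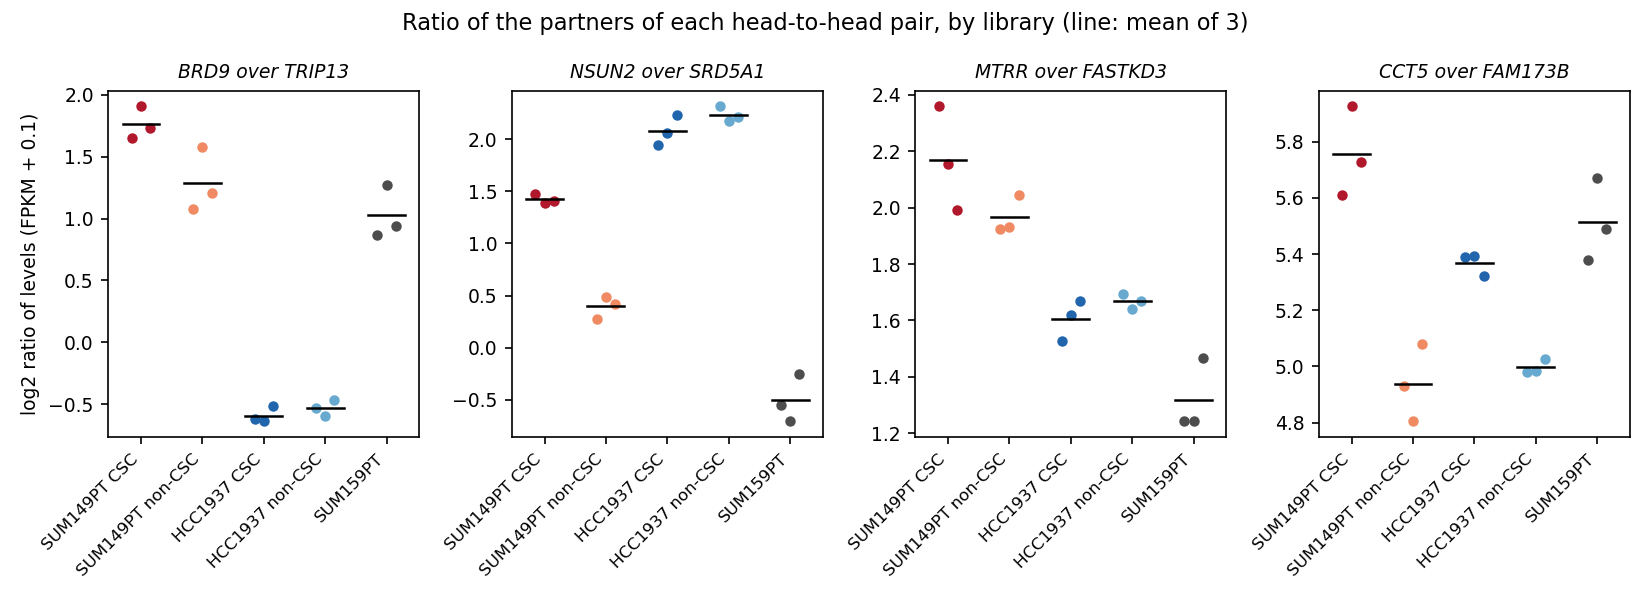
Log2 ratio of the levels (FPKM + 0.1) of the partners of each head-to-head pair, with 1 point per library and a line at the mean of each group of 3. BRD9 over TRIP13 lies above 0 in SUM149PT and SUM159PT and below 0 in HCC1937, and NSUN2 over SRD5A1 lies below 0 in SUM159PT.

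Among the members alone, the median SUM149PT difference was smallest in the stretch at the outer end. The limits of these stretches were not among the planned comparisons. The 3 members with at least 1 FPKM within 0.6 megabases of the end, CCDC127, PDCD6 and EXOC3, had differences from 0.38 to 1.07 with a median of 0.69. Genes tested there that are not members were SDHA at 0.92, AHRR at 1.43 and C5orf55 at -0.09. On chromosome 5 beyond the listed 5q genes the median was lower, at 0.31. The median was 1.59 over 8 members from 0.6 to 2 megabases, 1.77 over 8 from 2 to 8 megabases and 2.38 over the 10 beyond 8 megabases, which ranged from 1.53 to 3.14. ZDHHC11, at chr5:795606-850986, was the member below 0 among these 29.

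**Figure D3:**
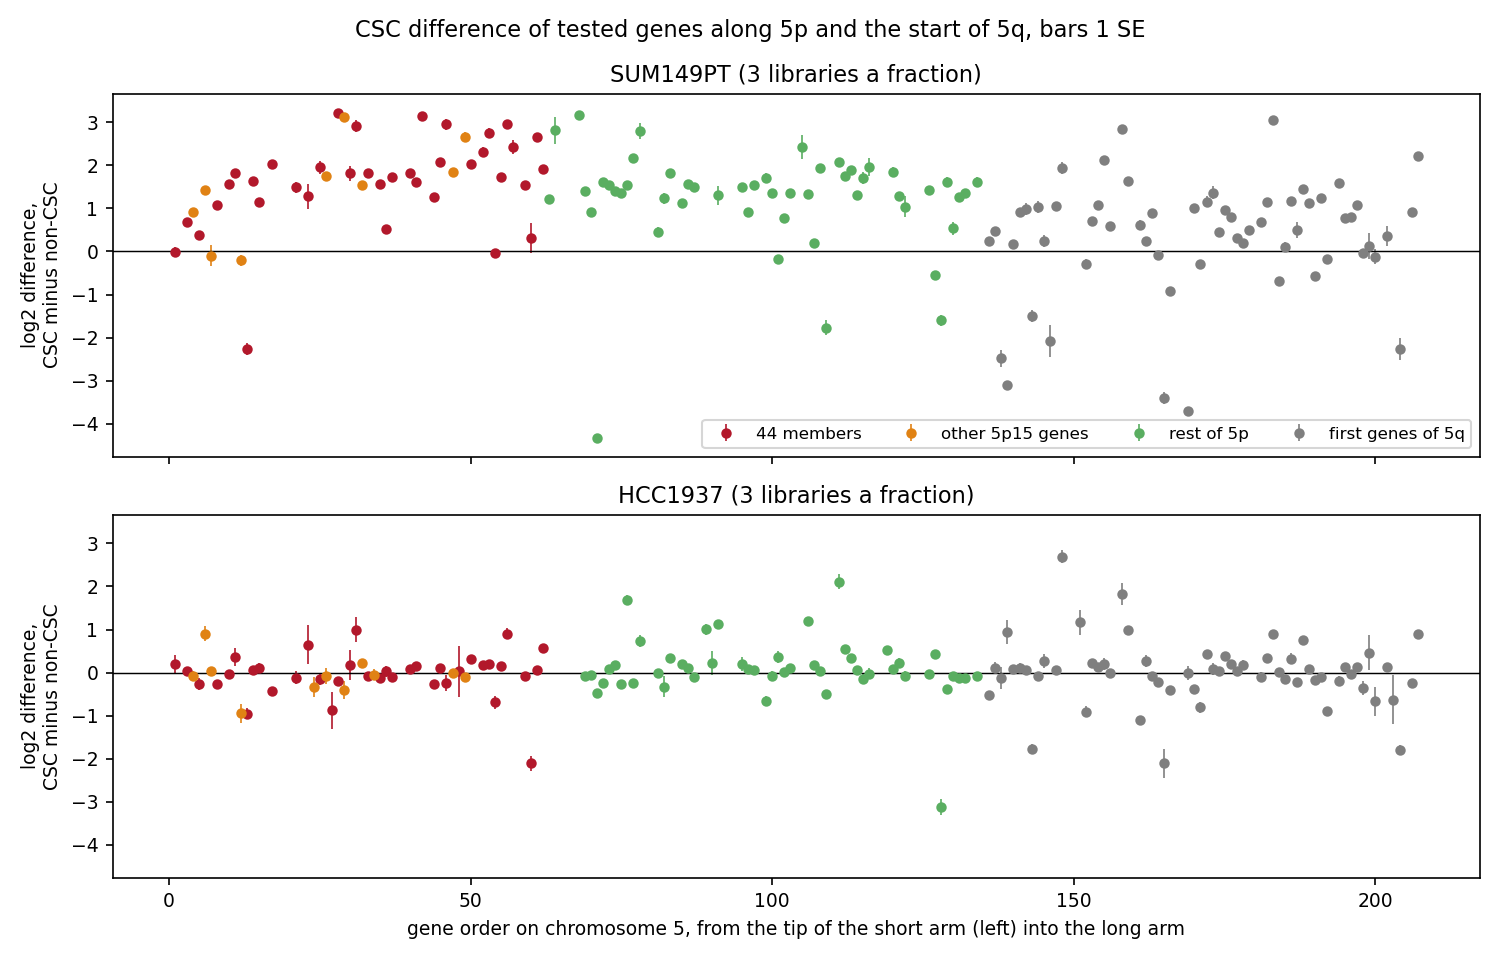
Log2 difference of CSC minus non-CSC for tested genes by their order from the tip of 5p into 5q, in SUM149PT (top) and HCC1937 (bottom), with bars of 1 SE and colors for the members and the neighboring lists. Most members in SUM149PT lie above 1, with ZDHHC11 at -2.26, and most in HCC1937 lie near 0.

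Genes of 5p outside the list were also mostly higher in CSC of SUM149PT. The median difference of CSC minus non-CSC was 1.74 over the 37 members tested and -0.11 over all genes. Among the other 5p15 genes, 18 in the table, 9 were tested, 7 were called higher and 0 lower by limma, and their median was 1.54. In the rest of 5p 45 were called higher and 4 lower of 50 tested, with a median of 1.41. Over the first genes of 5q 40 were higher and 12 lower of 60, with a median of 0.60. That median was 0.40 with the GC trend removed and 0.92 after quantile normalization. With no minimum level the medians were 1.58 over the members, 0.09 over the other 5p15 genes, 1.21 over the rest of 5p and 0.32 over the first genes of 5q. Of the 29 members averaging 1 FPKM or more in that line, 25 (86.2%) had a difference of at least 1. So had 81.0% of the 84 such genes of 5p, which include these members. The share was 18.6% of the 370 of chromosome 5 beyond the 5q genes listed, and 12.2% of all 11992. The medians of other chromosomes, an addition made after seeing the data, ran from -0.46 on chromosome 20 to 0.28 on chromosome 22. In HCC1937 the corresponding medians were 0.03 over the members, -0.08 over the other 5p15 genes, 0.06 over the rest of 5p, 0.05 over the start of 5q and -0.03 over all genes.

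Genes were named from these neighboring lists for the size of their difference, among those averaging 1 FPKM or more in the line. They went both ways. Among the other 5p15 genes of SUM149PT, C5orf38 differed by 3.12 (SE 0.0971), ANKRD33B by 2.65 (SE 0.114) and MARCH6, a ubiquitin ligase, by 1.83 (SE 0.0712). In the rest of 5p, CDH6 and CDH12, both cadherins, differed by 3.16 (SE 0.0965) and 2.81 (SE 0.321), and ADAMTS12, a metalloprotease, by 2.79 (SE 0.192). PDZD2, a PDZ protein, was at 0.373, 0.412 and 0.401 FPKM in SUM149PT CSC and 10.2, 9.59 and 9.63 in non-CSC, the lower fraction being CSC with a difference of -4.32 (SE 0.0602), and HMGCS1, an enzyme of sterol synthesis, differed by -0.54 (SE 0.0621). At the start of 5q ADAMTS6, IL31RA and MAP1B differed by 3.04 (SE 0.114), 2.83 (SE 0.0944) and 2.22 (SE 0.0684), and PDE4D, ACTBL2 and ITGA1 by -3.70 (SE 0.06902), -3.40 (SE 0.133) and -3.10 (SE 0.0929). In HCC1937, AHRR, the repressor of the aryl hydrocarbon receptor, was the other 5p15 gene called higher in CSC. AHRR was at 1.49, 1.52 and 1.304 FPKM in HCC1937 CSC against 0.527, 0.823 and 0.845 in non-CSC, without overlap, a difference of 0.91 (SE 0.179). The list had 0 genes called higher with no minimum level, with the replicate number in the fit, and without replicate 2 or 3. In the same list 1 gene was called lower, and 0 where both groups reached the minimum level. Its lowest difference was that of ZDHHC11B, -0.94 (SE 0.2243). Farther along 5p, DAB2, NPR3 and IL7R differed by 2.11 (SE 0.174), 1.69 (SE 0.108) and 1.12 (SE 0.09595) in HCC1937, and CCL28, a chemokine, by -3.12 (SE 0.1795). At the start of 5q, ESM1 differed by 2.69 (SE 0.1504) and OCLN, a tight junction protein, by -1.80 (SE 0.124).

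**Figure D4:**
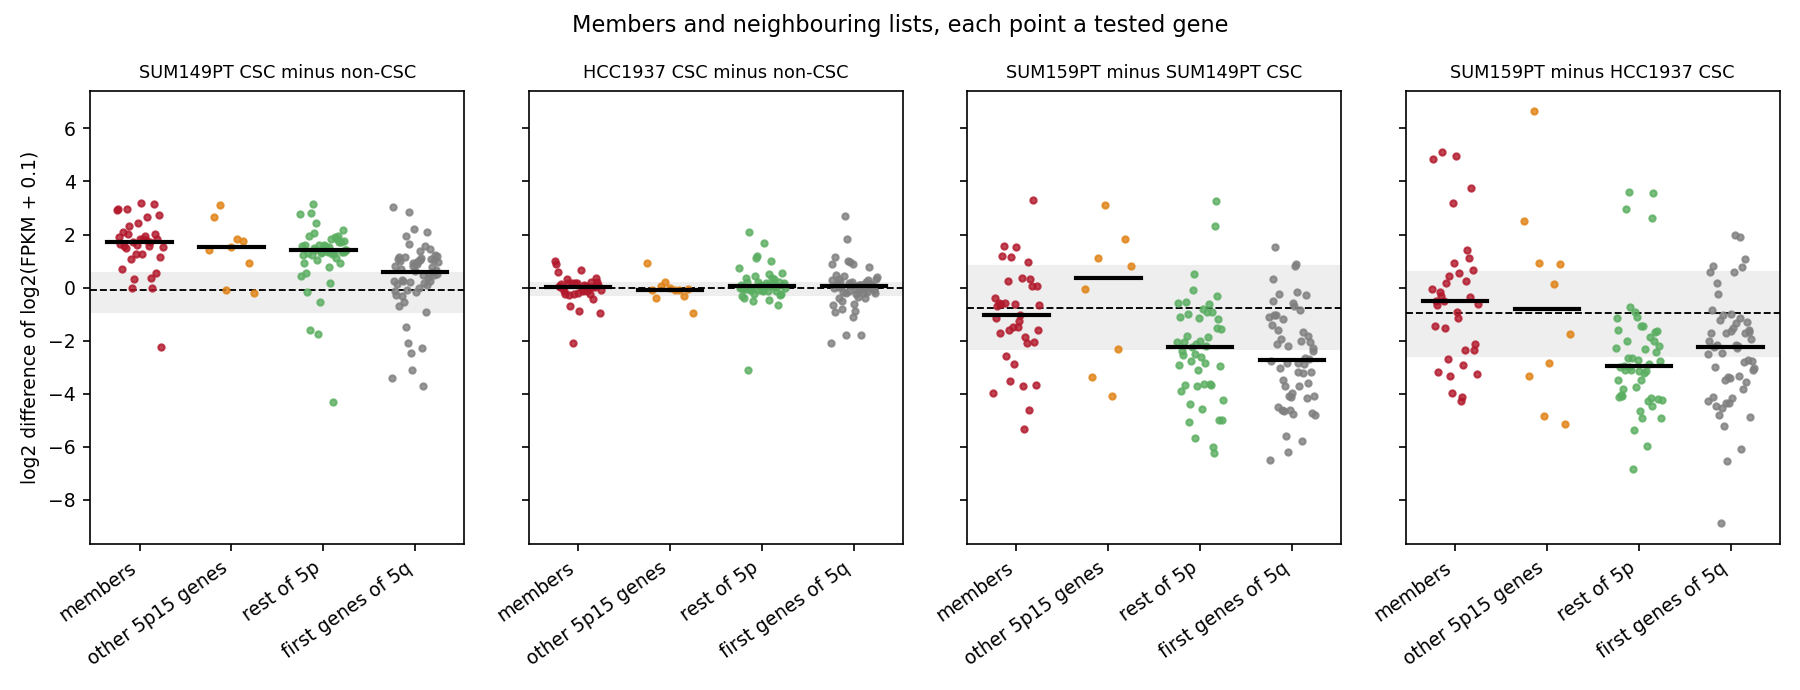
Log2 differences of log2(FPKM + 0.1) for each tested gene of the members, the other 5p15 genes, the rest of 5p and the first genes of 5q in 4 comparisons, with a bar at each median, a dashed line at the median of all genes tested and a band over their middle range. The 5p lists stand above all genes in SUM149PT and close to all genes in HCC1937, and the rest of 5p lies below all genes in SUM159PT.

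The difference of CSC minus non-CSC was also compared between the lines. This is a description, since the list was made with these contrasts in view. Over the 12 sorted libraries, 38 members were tested for the SUM149PT difference minus the HCC1937 difference, and 34 were called positive and 1 negative, beside 28.1% and 33.0% of all 16451 genes. The median was 1.63 over the members and -0.08 over all genes. Each SUM149PT fraction was then set against 1 mean of HCC1937, taken over its CSC and non-CSC libraries together. Of the 30 abundant members, 21 (70.0%) were nearer to that mean in CSC than in non-CSC, as were 46.3% of 12295 genes. Nothing is read from this count. In log2 units the median absolute distance from that mean over these members was 0.95 in SUM149PT CSC and 1.68 in non-CSC. Over all genes it was 0.84 and 0.78. The 9 that were nearer in non-CSC were TPPP, ZDHHC11, IRX2, ADAMTS16, SEMA5A, CMBL, TRIO, FAM105B and ANKH.

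**Figure D5:**
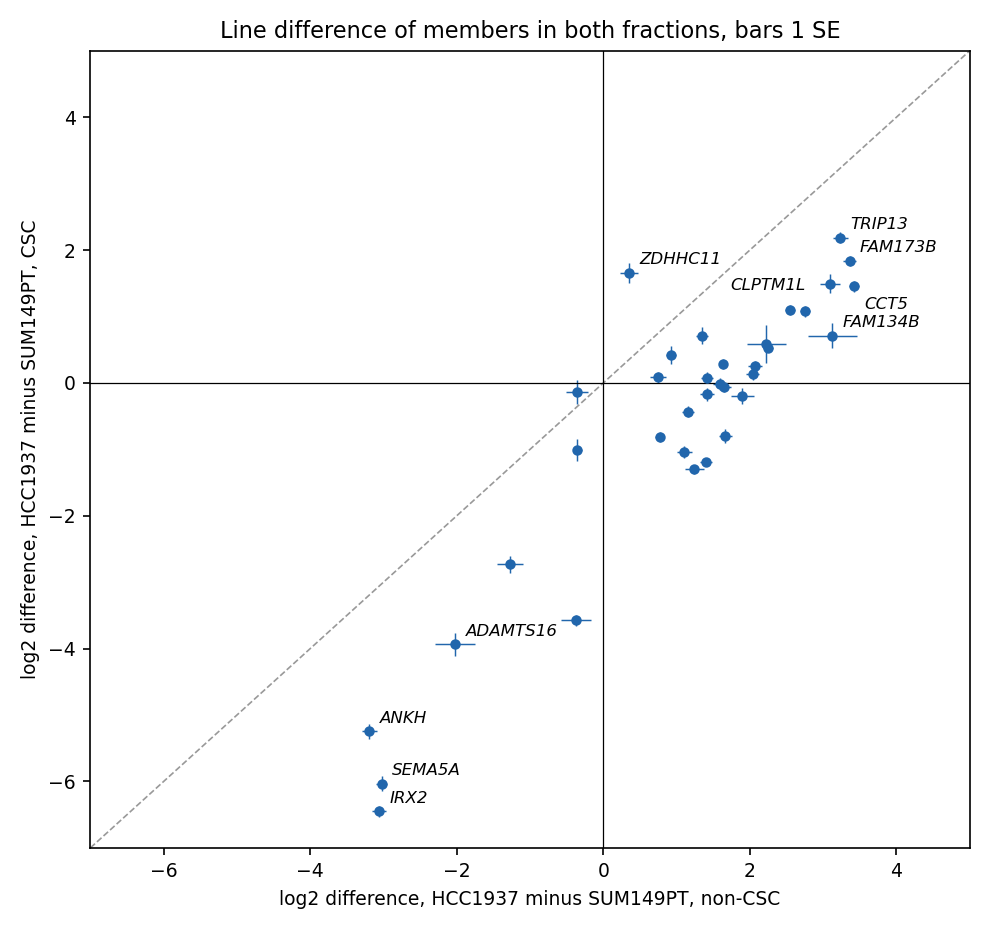
Log2 difference of HCC1937 minus SUM149PT for each member tested in both fractions, in non-CSC (horizontal) and in CSC (vertical), with bars of 1 SE and a dashed line where both are equal. IRX2 lies at -3.06 in non-CSC and -6.45 in CSC, CCT5 at 3.42 and 1.45, and ZDHHC11 is a member above the dashed line.

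Between the lines the lists are given by their medians. In non-CSC the median of HCC1937 minus SUM149PT was 1.41 over the members, 2.02 over the other 5p15 genes, 1.85 over the rest of 5p and 0.28 over the start of 5q, with 0.10 over all genes. In CSC these medians were -0.10, 0.64, 0.49 and -0.25, with 0.24 over all genes, and that of the members was 0.03 where both groups reached the minimum level. The order of the lists changed with the processing, as with the GC trend removed in CSC, at -0.24 for the members and -0.20 for the start of 5q, and with no minimum level in non-CSC, at 1.199 for the members and 0.08 for the other 5p15 genes. By role, in non-CSC all 9 RNA, translation and mitochondrial members were called higher in HCC1937, and 4 of the 8 cytoskeletal and guidance members tested were higher and 3 lower, beside 41.4% and 35.6% of all genes. Of those 3, ADAMTS16 and SEMA5A passed the minimum through SUM149PT alone.

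In the comparisons with SUM159PT the roles are given side by side, and no difference between roles was tested. Against SUM149PT CSC the cytoskeletal and guidance genes were called lower in 7 of 7, DNAH5 passing the minimum through SUM149PT CSC alone, with a median of -3.66, and the RNA, translation and mitochondrial genes in 8 of 9, with a median of -1.73, beside 55.5% of all genes called lower. The loose group of membrane transport, lipid and secretion, named transport genes from here on, was called higher in 6 and lower in 3 of 10. Its median was 0.28, and 31.5% of all genes were called higher. Of the lower transport genes, ZDHHC11 and LPCAT1 passed the minimum through SUM149PT CSC alone. The ubiquitin and cell death genes were lower in 3 of 3 that reached the minimum in both groups, with 1 of them, FBXL7, at 0.87 after quantile normalization. On the TPM scale the transport genes were higher in 1 and lower in 6, with a median of -0.81, beside 16.0% and 71.4% of all genes and a median of -1.83. With the GC trend removed they were higher in 3 and lower in 4, beside 25.5% and 60.1%. Against HCC1937 CSC the RNA, translation and mitochondrial genes were lower in 8 of 9, with a median of -2.94, the cytoskeletal genes higher in 2 and lower in 4 of 7, and the transport genes higher in 4 and lower in 1 of 10, beside 27.5% and 57.9% of all genes. Where both groups reached the minimum, the cytoskeletal genes were higher in 1 and lower in 3 of 5 and the transport genes higher in 4 and lower in 0 of 8. Over all 10 tested the transport genes turned there too, to 2 higher and 6 lower on the TPM scale, beside 14.8% and 72.8% of all genes. The lower ones include ZDHHC11, which passed the minimum through HCC1937 CSC alone. Over all members the median was -1.02 and -0.52, beside -0.76 and -0.97 over all genes. Relative to all genes the members were thus at -0.26 against SUM149PT CSC and 0.45 against HCC1937 CSC. The first was -0.07 without replicate 1, and -0.03 among genes averaging 1 FPKM or more, where the second was 0.22. After quantile normalization these relative medians were -0.58 and -0.08, with no minimum level -0.63 and -0.52, and with the GC trend removed -0.60 and -0.23, so the side of all genes on which the members lie against HCC1937 CSC depends on the processing. The rest of 5p lay at -1.47 and -1.97 relative to all genes as deposited and at -0.20 and -0.74 with the GC trend removed. Against SUM149PT non-CSC, a comparison added after seeing the data, 21 members were higher and 12 lower of 36, beside 28.5% and 59.6% of all 15770 genes, with a median of 0.77 beside -1.08. Against HCC1937 non-CSC 11 were higher and 23 lower of 37, beside 27.1% and 60.2% of 15682 genes, with a median of -0.62 beside -1.07. Both were run on the deposited scale alone, so how far they rest on the scaling was not tested.

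At stricter limits, an absolute difference of at least 1 with an adjusted p of at most 0.0001, 27 members were higher and 1 lower in SUM149PT CSC of 37, beside 7.71% and 12.8% of all genes. In HCC1937 limma gave 0 genes in either direction at these limits, against 5886 genes whose unadjusted p reached 0.05, and the smallest adjusted p was 0.000128.

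These values come from 3 libraries per group of 3 cell lines. The sorted fractions were profiled as whole populations, SUM159PT had no sorted counterpart, and its FPKM scale differed from that of the others.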

How the data were processed

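The deposited FPKM table was used as it stands; the submitters' notes name GRCh38 and Bowtie2, and the quantifier and the strand of the protocol are not given in the sources used here. The members and the lists of neighboring genes were chosen with earlier results of these data known. Each comparison was fitted with limma 3.58.1 (R 4.3.3) on log2(FPKM + 0.1) over its 6 libraries, for genes averaging 0.1 FPKM or more, with p-values adjusted by Benjamini-Hochberg over all genes tested. Symbols were placed with GENCODE release 29, which matched 25839 of 33158 (77.9%). For CSC against non-CSC, named genes were the members with the largest differences in each line and direction, among those averaging 1 FPKM or more in that line. The same level held for up to 3 genes per direction from each neighboring list. Members were also named for their differences between the lines and from SUM159PT, and from roles and pairs fixed by symbol. Promoter windows came from RefSeq on GRCh38.p14. Alternatives covered the pseudocount, the minimum level, scaling, GC trend, libraries left out and the limits of the study. Python 3.11.15, pandas 2.3.3 and numpy 2.4.6 assembled the values.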

Additional observations from a re-analysis of the deposited data

Results flagged for a closer look

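The results below stood out because the CSC minus non-CSC difference was not the same in SUM149PT and HCC1937, by a limma interaction term over the 12 sorted libraries. Each value is the log2 difference in SUM149PT minus that in HCC1937. Since the genes were selected on these contrasts, the values describe them and support nothing further.

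Among developmental factors the value was 3.39 (SE 0.123) for IRX2 and 1.64 (SE 0.417) for IRX1. It was 1.58 (SE 0.137) for BRD9 and 1.05 (SE 0.133) for TRIP13 among the chromatin and cell division genes. The group named RNA, translation and mitochondria gave 1.97 (SE 0.105) for CCT5, 1.72 (SE 0.0835) for MTRR and 1.68 (SE 0.0996) for NSUN2. It gave 1.52 (SE 0.110) for FAM173B and 1.45 (SE 0.0980) for FASTKD3. All of these were positive, so the difference of CSC minus non-CSC was greater in SUM149PT than in HCC1937. In HCC1937 itself that difference was below 0 for IRX2, NSUN2 and FAM173B, at -0.19, -0.12 and -0.26, none of them called.

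In the group named membrane transport, lipid and secretion the value was 3.20 (SE 0.237) for CMBL, 2.46 (SE 0.133) for SLC12A7 and 2.42 (SE 0.409) for FAM134B. It was 2.05 (SE 0.158) for ANKH, 1.60 (SE 0.209) for CLPTM1L and 1.34 (SE 0.107) for EXOC3. For SRD5A1 it was 0.50 (SE 0.151) and for ZDHHC11 -1.31 (SE 0.203). ZDHHC11 was the negative value among these, being lower in CSC of both lines and by more in SUM149PT, while SLC12A7 was higher in CSC of SUM149PT and lower in CSC of HCC1937. Cytoskeleton and guidance genes gave 3.01 (SE 0.134) for SEMA5A, 2.60 (SE 0.0921) for MYO10, 2.55 (SE 0.146) for TRIO, 1.91 (SE 0.346) for ADAMTS16 and 1.34 (SE 0.0915) for BASP1, and the ubiquitin and cell death genes 1.71 (SE 0.119) for DAP and 1.58 (SE 0.0908) for FAM105B. SEMA5A averaged 0.0186 and 0.00816 FPKM in the HCC1937 fractions, below the minimum level, so its value restates its SUM149PT difference. Below that level on average were also IRX1 in SUM149PT non-CSC, at 0.0189 FPKM, and ANKH and ADAMTS16 in HCC1937 non-CSC, at 0.0468 and 0.0741. The cause of the difference between the lines was not tested.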

How the results depend on the processing

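Single-gene differences kept their side of the threshold, and their direction where called, under most alternatives: 332 of 333 values in SUM149PT, 285 of 318 in HCC1937, 318 of 346 and 321 of 331 between the lines in CSC and non-CSC, and 323 of 346 and 313 of 345 for SUM159PT against SUM149PT CSC and HCC1937 CSC. In SUM149PT the members' median of 1.74 became 1.46 with a pseudocount of 1, 1.58 with no minimum level, 2.03 after quantile normalization, 1.86 on the TPM scale and 1.68 to 1.76 when a replicate was left out. With members of at least 10 FPKM, an alternative chosen after seeing the data, limma called 19 of 19 higher and 0 lower in SUM149PT. No share of all genes at that level stands beside this count, so nothing is read from it. At the main minimum limma called 33.3% and 41.5% of all 16037 genes higher and lower, and 12290 reached an unadjusted p of 0.05. In HCC1937 the 3 members called higher in CSC became 5 after quantile normalization, 5 on the TPM scale, 0 at the limits of the study and 0 to 2 when a replicate was left out. They were 2 without replicate 1, 1 without replicate 2 and 0 without replicate 3. Of all 15582 genes 1607 were called higher as deposited, 2396 after quantile normalization, 2239 on the TPM scale and 0 at those limits. Without replicates 1, 2 and 3 in turn, 718, 555 and 761 genes were called higher. The 4 called lower became 2 with no minimum level, 7 when all 15 libraries were fitted and 0 at the limits of the study. When a replicate was left out they became 1 to 3, with 3 without replicate 1, 1 without replicate 2 and 1 without replicate 3. Of all 15582 genes 2378 were called lower as deposited, 2989 with all 15 libraries fitted and 0 at those limits. Without replicates 1, 2 and 3 in turn, 1433, 1002 and 1281 genes were lower, and with no minimum level 1797 of 33158. The HCC1937 median became 0.16 on the TPM scale. Between the lines the limits of the study gave 5 higher and 9 lower in CSC (13 and 14 as reported), beside 15.6% and 11.8% of all genes. In non-CSC they gave 19 higher and 3 lower (28 and 6 as reported), beside 14.2% and 13.2%. Among genes averaging 1 FPKM or more, 25 members were higher and 1 lower in non-CSC, beside 5729 and 4414 of all 12272 genes. For SUM159PT against SUM149PT CSC the 9 called higher became 2 on the TPM scale, 4 with the GC trend removed and 3 at the limits of the study. The shares of all genes called higher were 31.5% as deposited, then 16.0%, 25.5% and 16.9% in that order. The 26 lower became 17 at those limits, beside 39.2% of all genes. Against SUM149PT non-CSC, chosen after seeing the data, the members called higher and lower were 21 and 12, beside 28.5% and 59.6% of all genes. Against HCC1937 CSC the 11 called higher became 6 among genes averaging 1 FPKM or more, 6 on the TPM scale and 6 at the limits of the study. Beside these, 3532 of all 11359 genes, 14.8% and 13.4% were called higher in that order, and 27.5% as deposited.

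Among named genes called before or after, signs changed as follows for SUM159PT against SUM149PT CSC. After quantile normalization ANKH was at 0.11. On the TPM scale SLC12A7 was at -0.77, EXOC3 at -0.84, TRIP13 at -1.03 and SRD5A1 at -1.02. With the GC trend removed ANKH was at 0.087, SLC12A7 at -1.01, EXOC3 at -1.01, FAM173B at 0.16 and CLPTM1L at -0.0085. Against HCC1937 CSC, upper quartile scaling put DAP at 0.029 and BRD9 at 0.034, quantile normalization put ADAMTS16 at 1.39, and the TPM scale put FAM134B at -0.46 and EXOC3 at -0.84. Removing the GC trend put EXOC3 at -0.80, IRX1 at -0.25 and SRD5A1 at 0.77. The cause was not tested in any of these. Counting every member tested, called or not, signs changed against SUM149PT CSC in 3 after quantile normalization, 0 with upper quartile scaling, 6 on the TPM scale and 6 with the GC trend removed, and against HCC1937 CSC in 2, 6, 5 and 6, CLPTM1L among them at 0.25 with upper quartile scaling.

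The scaling moved the median of all genes by 0.21 in SUM149PT after quantile normalization and by 0.12 in HCC1937 on the TPM scale. Between the lines it moved by -0.17 after quantile normalization and -0.22 with upper quartile scaling in CSC, and by -0.22 and, on the TPM scale, -0.16 in non-CSC. For SUM159PT it moved by 0.76, 0.26 and -1.07 against SUM149PT CSC and by 0.92, 0.48 and -0.99 against HCC1937 CSC, after quantile, upper quartile and TPM scaling. Between CSC and non-CSC, replicate numbers showed no clear pairing of the libraries. Same-number residual correlations were 0.136, 0.0287 and 0.120 in SUM149PT, where those of different numbers ran from -0.1945 to 0.0688. In HCC1937 the same-number values were all negative. Pairing between the lines or with SUM159PT was not measured. With the replicate number as a block, members called higher and lower were 33 and 1 in SUM149PT, 2 and 2 in HCC1937, 11 and 14 between the lines in CSC, 27 and 7 in non-CSC, and 9 and 26 and 11 and 19 for SUM159PT against the CSC groups. In the same order, all genes called were 5094 and 6398 of 16037, 1161 and 1905 of 15582, and 6898 and 4742 of 15952. Then came 6564 and 5625 of 16433, 4643 and 8271 of 14976, and 4237 and 8954 of 15515. Without counts, what the depth limits is unknown.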
